A study of Mus musculus with 34 samples.

Results

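The genes described here are 9 enzymes of steroid and oxysterol metabolism in mouse liver: Cyp17a1, Cyp46a1, Hsd3b5, Hsd3b2, Hsd3b3, Hsd17b2, Srd5a1, Akr1c6 and Hsd11b1. They are 9 of the 37583 genes with a row in the mRNA data, and they were chosen by name with their levels in these libraries already known. Their mRNA values are therefore given as a description without p-values. All 9 had enough signal to enter the analysis across genes.

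The groups were livers labelled knockout (KO; genotype Setd8lox/lox-Alb-Cre) and livers labelled wild type (WT), all from 45-day-old F1 mice of C57Bl6 and CBA parents on standard chow. The labels do not give the sex of the animals. Setd8 encodes the methyltransferase that places the first methyl group on lysine 20 of histone H4, and Alb-Cre acts in hepatocytes, so that other liver cells keep the gene. Polyadenylated RNA was sequenced in 3 KO and 3 WT libraries. Newly made RNA was sequenced in 1 KO and 1 WT library by each of 2 methods. In the EU method the mice received 25 mg per kg of ethynyl uridine 30 min before death and labelled nuclear RNA was captured. In the Br method isolated nuclei elongated their transcripts with bromouridine (nuclear run-on).

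Steroid hormones are made from cholesterol in the adrenal glands and gonads, and the liver mostly converts and clears them. Hydroxysteroid dehydrogenases and reductases switch a keto and a hydroxyl group at one position of the ring and so turn a hormone on or off, while cytochrome P450 enzymes add hydroxyl groups. In mice several of these liver genes differ in level between males and females, and Hsd3b5 is known as a male-specific liver gene.

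Hsd3b5, Hsd3b2 and Hsd3b3 lie in 1 cluster on chromosome 3 and differed in how their levels compared between the groups, so the 250 bases before their annotated starts are shown to let the genes be compared. All are on the minus strand of GRCm38.p6 and taken from RefSeq: chr3:98645535-98645784 for Hsd3b5, chr3:98763129-98763378 for the first start of Hsd3b3 and chr3:98724544-98724793 for Hsd3b2. Capitals mark every stretch of at least 12 bases that Hsd3b5 and Hsd3b3 share.
Hsd3b5: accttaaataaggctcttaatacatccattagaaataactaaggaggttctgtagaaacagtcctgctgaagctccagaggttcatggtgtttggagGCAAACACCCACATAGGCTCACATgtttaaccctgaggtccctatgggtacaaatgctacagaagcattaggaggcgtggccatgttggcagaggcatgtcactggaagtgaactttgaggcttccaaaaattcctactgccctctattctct
Hsd3b3: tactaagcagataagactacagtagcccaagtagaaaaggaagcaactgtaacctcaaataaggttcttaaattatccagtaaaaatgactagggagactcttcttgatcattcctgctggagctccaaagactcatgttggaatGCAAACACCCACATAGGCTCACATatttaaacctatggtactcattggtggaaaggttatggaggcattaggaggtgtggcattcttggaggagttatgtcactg
Hsd3b2: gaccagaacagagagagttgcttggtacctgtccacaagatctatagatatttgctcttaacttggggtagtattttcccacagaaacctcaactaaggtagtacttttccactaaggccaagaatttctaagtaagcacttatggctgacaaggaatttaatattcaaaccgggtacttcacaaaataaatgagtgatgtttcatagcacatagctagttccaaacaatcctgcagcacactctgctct
The upstream sequence of Hsd3b5 matched that of Hsd3b3 at 78.2% of 197 aligned bases and that of Hsd3b2 at 75.8% of 207. Gapped positions are left out of these percentages, and no value for unrelated sequences was computed, so they do not rank the pairs. The stretch in capitals is absent from the Hsd3b2 window. The RefSeq start of Hsd3b5 lies 15282 bases upstream of the one in the GENCODE M21 annotation, so this window is that of a distal start.

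Cyp46a1 and Srd5a1 have start regions of another kind, rich in CG pairs. The window of Cyp46a1 (chr12:108334066-108334315, plus strand, GRCm38.p6, RefSeq) is shown with each CG pair in capitals.
Cyp46a1: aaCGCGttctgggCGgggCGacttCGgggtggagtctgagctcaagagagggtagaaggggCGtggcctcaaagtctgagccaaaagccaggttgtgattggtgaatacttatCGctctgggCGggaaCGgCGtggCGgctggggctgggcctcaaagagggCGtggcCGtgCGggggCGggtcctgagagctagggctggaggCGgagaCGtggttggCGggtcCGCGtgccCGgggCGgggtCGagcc
It holds 23 CG pairs and that of Srd5a1 20, against a median of 6 over 32841 mouse start regions. Hsd11b1 has 6, Hsd3b5 and Hsd3b2 have 1 each, and Hsd3b3 and Akr1c6 have 0. Sequences were found for 7 of the 9 genes. The windows were searched on both strands for TTCNNNGAA (the core of a STAT site), AGGTCA (a nuclear receptor half-site) and AGAACA (a steroid receptor half-site). The only match was 1 AGAACA, beginning 246 bases before the start of Hsd3b2, so no motifs overlapped. Of all start regions, 7.02% held TTCNNNGAA, 14% AGGTCA and 16.1% AGAACA.

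Values are read numbers that the authors scaled between the 6 mRNA libraries and rounded, and they summed to between 18069344 and 20102731 in KO libraries and between 20066093 and 25820906 in WT libraries. WT replicate 3 stood apart, since only 20077 genes were detected in it and 24497 to 26247 in each of the others. Setd8 itself (Kmt5a in the annotation) had scaled values of 1199, 1040 and 1075 in KO libraries and 593, 615 and 1076 in WT libraries, so it was not lower in the libraries labelled KO (limma adjusted p = 0.244 for a log2 difference of 0.59 with an SE of 0.25). That difference grew to 0.87 and was called when WT replicate 3 was left out. Counts over the whole gene test a deletion of part of it only in part, so each direction given here is that between labels. The labels do not say that the libraries came from separate animals, so p-values measure the spread between libraries, which may be technical. Hepatocyte markers were abundant in all libraries, with sums of 1877564 to 2174587 in KO and 1891290 to 3021176 in WT, and limma called 0 of 8 (1 at an unadjusted p under 0.05, 0 by edgeR and 1 by DESeq2). Y-linked Ddx3y had 459 to 990 in KO libraries and 698 to 1266 in WT libraries, while Xist had 12 to 35 in KO and 18 to 88 in WT, so both groups carried Y-linked transcripts.

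Of the 9 genes, Cyp17a1 was far higher and Cyp46a1 and Hsd3b5 far lower in KO libraries, and the other 6 overlapped between the groups. For 1 gene the KO values lay above all WT values and for 2 genes below, where over all 16813 genes tested 13.2% lay above and 12.8% below. At a limma adjusted p under 0.05 over all genes, 1 gene was called higher (Cyp17a1) and 1 lower (Cyp46a1), against 1.35% and 1.36% of all genes tested. These counts rest on the contrast by which the genes were picked, so nothing is read from them. Calls with 1 library left out rest on the same contrast and are likewise no support. That of Cyp17a1 was kept in each case, and that of Cyp46a1 was lost without each library other than WT replicate 3.

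**Figure D1:**
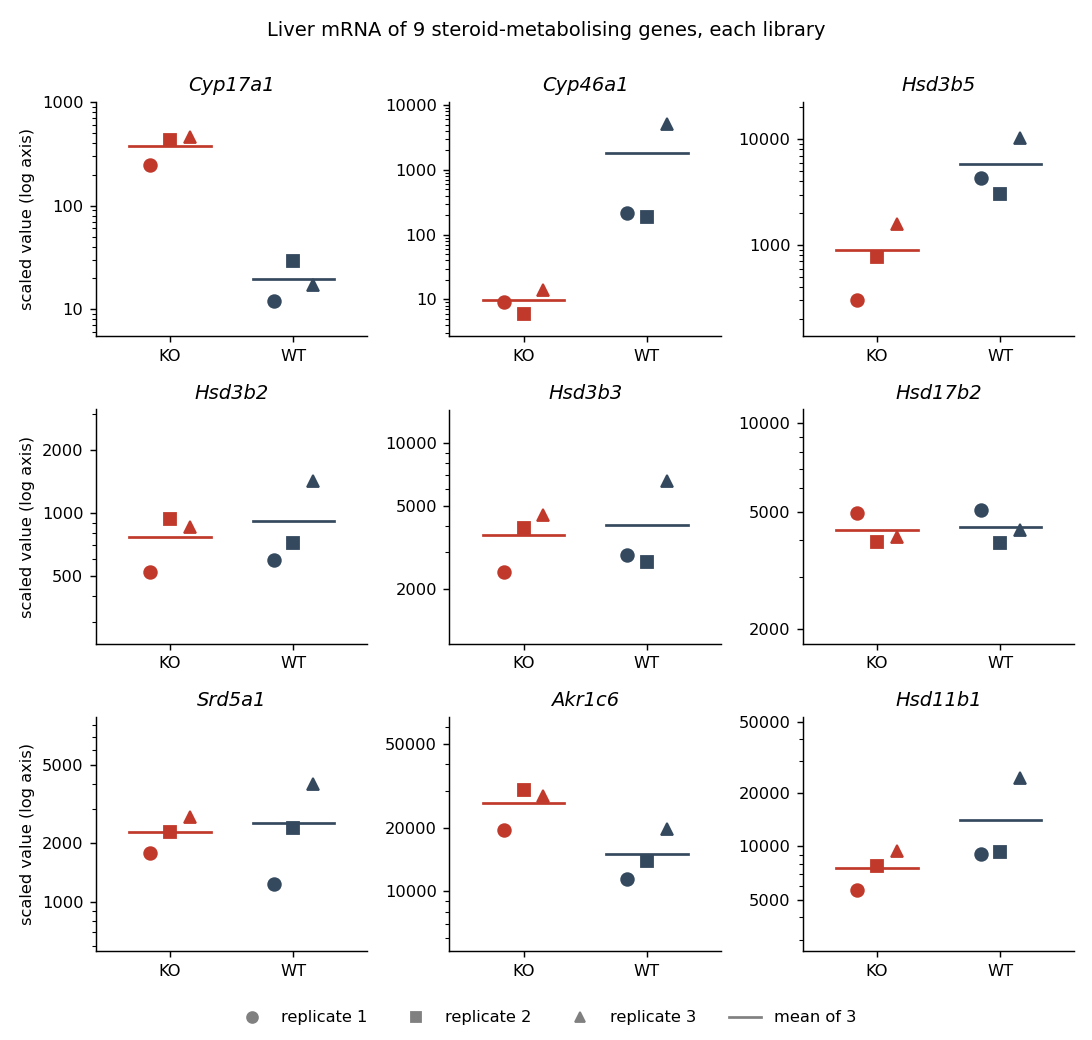
Scaled mRNA values (log axes) of the 9 genes, KO on the left and WT on the right of each panel, with 1 symbol per replicate and a line at the mean of 3. The KO points of Cyp17a1 lie above all WT points, those of Cyp46a1 and Hsd3b5 lie below, and WT replicate 3 of Cyp46a1 sits alone at 5096.

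Cyp17a1 (ENSMUSG00000003555) encodes the P450 that hydroxylates pregnenolone and progesterone at carbon 17 and cleaves the side chain to give androgens. Its mRNA had scaled values of 246, 429 and 460 in KO libraries, against 12, 29 and 17 in WT libraries. The lowest KO library was above the highest WT library. Means were 378 ± 116 in KO and 19.3 ± 8.74 in WT (SD, n = 3 each), and the fold fitted on the scale of log2(value + 1), as for all folds given here, was 19.1 (log2 difference 4.26, SE 0.40). With a library left out the log2 difference ran from 3.98 to 4.58, and without WT replicate 3 it was 4.21. Set per kilobase of exon, Cyp17a1 was still a minor transcript in KO, at 137 (range 88.8 to 166), and in WT it was the lowest of the 9 genes at 6.98 (4.33 to 10.5).

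The newly made RNA of Cyp17a1 ran the other way. EU capture gave 2 reads in KO and 159 in WT, or 0.358 CPM in KO and 14.7 CPM in WT (reads scaled to library size). The log2 ratio of reads, centred on the median gene, was -5.28, with a 95% counting interval of -8.34 to -3.41. Br run-on gave 32 reads in KO and 71 in WT, a log2 ratio of -0.70 (interval -1.35 to -0.08). Both methods thus gave relatively fewer nascent reads in the KO library, while mRNA was higher in all 3 KO libraries. Among 152 genes called higher in KO mRNA with a nascent value, 0 were at least 2-fold lower in both nascent methods. Over all genes compared this share was only 1.48%, so little is read from the 0. Cyp17a1 reached 2-fold in EU but not in Br. The nascent libraries have no replicates, and intervals here cover counting error only.

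Cyp17a1 mRNA is typical of the steroid-making cells of the gonads, and in adult mice, unlike in humans, the adrenal largely lacks it. A list of 13 markers of adrenal and gonadal cells was examined. Summed scaled values were 1179 to 1422 in KO and 604 to 884 in WT, most of it from Mrap, a melanocortin receptor partner also found in fat (1268, 1296 and 1037 in KO; 507, 553 and 814 in WT). Of the 13 markers 6 stayed under 10 in all libraries. The first enzyme of steroid synthesis, Cyp11a1, had 5, 1 and 3 in KO and 5, 7 and 0 in WT, and adrenal Cyp11b1 had 1, 0 and 3 in KO and 5, 9 and 0 in WT. The gonadal markers were low as well, with 6, 2 and 3 in KO and 6, 6 and 0 in WT for the luteinizing hormone receptor gene Lhcgr and 12, 9 and 5 in KO and 8, 3 and 1 in WT for the Leydig cell hormone gene Insl3. Of the 4 markers with enough signal limma called 0 (2 higher at an unadjusted p under 0.05, 0 by edgeR and 2 by DESeq2), and the largest log2 difference was 2.58 for Cyp21a1 (46, 37 and 42 in KO; 4, 17 and 3 in WT; limma adjusted p = 0.0744). Nascent Cyp21a1, like that of Cyp17a1, ran the other way in EU, with 0 reads in KO and 172 in WT. Br gave 4 reads in KO and 12 in WT (interval -3.23 to 0.58). In bulk tissue fewer cells of a type and less RNA per cell cannot be told apart.

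The genes whose pattern over the 6 mRNA libraries was most like that of Cyp17a1, among 12292 genes, were Tspan3 (Pearson r = 0.9987), the predicted gene Gm10291 (0.9959), the unnamed ENSMUSG00000090507 (0.9948), Insig2 (0.9944) and Mturn (0.9944). Insig2, which retains the cholesterol sensor in the endoplasmic reticulum, had 3485, 4291 and 4667 in KO and 1067, 1371 and 1381 in WT. The tetraspanin Tspan3 varied over a much narrower range, with 123, 132 and 132 in KO and 77, 88 and 79 in WT. These correlations rest on 6 libraries that fall in 2 groups, and are given as a description.

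Cyp46a1 (ENSMUSG00000021259) encodes cholesterol 24-hydroxylase, known chiefly from neurons, where it starts the removal of brain cholesterol. Its mRNA was barely detected in KO, with 9, 6 and 14, against 213, 190 and 5096 in WT libraries. All KO values lay below all WT values, and the WT libraries differed greatly among themselves. WT replicate 3 held 25.3 times the mean of the other WT libraries. Of 9874 genes with at least 100 in WT replicates 1 and 2, none had a larger excess in WT replicate 3, and 4 exceeded 10 times. The means were 9.67 ± 4.04 in KO and 1833 ± 2826 in WT (SD, n = 3 each), with a log2 difference of -5.87 (SE 1.14), or 58.3-fold lower in KO. Without WT replicate 3 the log2 difference was -4.31, or 19.9-fold lower, and over all libraries left out it ran from -6.68 to -4.31. The size of the difference thus depended on 1 WT library, while its direction did not.

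Nascent RNA of Cyp46a1 was sparse. EU capture gave 0 reads in KO and 32 in WT, which is 5.50-fold lower if KO is given 3 reads, before centring. The centred counting interval of its log2 ratio had an upper end of -2.0. Br run-on gave 0 reads in KO and 5 in WT, 1.22-fold lower by the same rule. The upper end of its interval was 0.57, so the Br reads show no minimum fall. At this depth no more can be said of its synthesis, and it was the 1 gene of the 9 under the RPKM floor for ratios. Per kilobase of exon, Cyp46a1 mRNA had 2.94 (1.83 to 4.26) in KO, the lowest of the 9, and 558 (57.8 to 1550) in WT.

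Of 10 markers of neurons and glia, sums were 433 to 495 in KO and 419 to 588 in WT, most of it from Syt1 (286, 382 and 401 in KO; 285, 273 and 513 in WT). Of the 4 with enough signal limma, edgeR and DESeq2 called 0, as did limma at an unadjusted p under 0.05. The synaptic marker Snap25 was at 6, 2 and 6 in KO and 7, 9 and 1 in WT. The genes most like Cyp46a1 in pattern were Acsl1 (r = 0.9994), Mettl7a1 (0.9981), Tmem59 (0.9971), Ppp4r2 (0.9954) and Ctsz (0.9951), over 6 libraries and 12292 genes. Acsl1, a long-chain acyl-CoA synthetase, had 12263, 11328 and 12730 in KO and 22254, 21631 and 43430 in WT. WT replicate 3 was the highest library for all 5 of these genes too, on a smaller scale.

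The Hsd3b genes encode enzymes that act at carbon 3 of the steroid. Most make progesterone and other ketosteroids, whereas mouse Hsd3b5 acts as a 3-ketosteroid reductase. Hsd3b5 (ENSMUSG00000038092) had scaled values of 305, 772 and 1596 in KO, against 4337, 3037 and 10226 in WT. The groups did not overlap, but the spread was wide, 5.23-fold between the highest and lowest KO libraries and 3.37-fold between those of WT. Means were 891 ± 654 in KO and 5867 ± 3831 in WT (SD, n = 3 each), with a log2 difference of -2.83 (SE 0.63), 7.09-fold lower in KO. Without WT replicate 3 it was 5.02-fold lower, and with a library left out the log2 difference ran from -3.40 to -2.21.

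Both neighbours overlapped between the groups. Hsd3b2 (ENSMUSG00000063730) had 521, 934 and 857 in KO and 594, 720 and 1428 in WT, a log2 difference of -0.18 (SE 0.36). Hsd3b3 (ENSMUSG00000062410) had 2398, 3905 and 4520 in KO and 2901, 2687 and 6600 in WT, a log2 difference of -0.09 (SE 0.39). For both genes WT replicate 3 was the highest of all 6 libraries. Without it the differences were 0.19 and 0.32, so their sign turned with 1 library. It also turned without KO replicate 1, to 0.08 and 0.18. Hsd3b6, the next gene along the chromosome, had 395, 401 and 504 in KO and 436, 573 and 286 in WT.

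Within a library the makeup of the family can be set without scaling between libraries. Hsd3b5 held 8.32%, 12.7% and 21.1% of the summed value of Hsd3b1, Hsd3b2, Hsd3b3, Hsd3b5 and Hsd3b6 in KO libraries, against 51.4%, 42.3% and 55.1% in WT libraries. Hsd3b3 held 65.4%, 64.4% and 59.9% in KO against 34.4%, 37.4% and 35.6% in WT. Hsd3b2 held 14.2%, 15.4% and 11.35% in KO against 7.035%, 10.0% and 7.7% in WT. Shares within a library make up a whole, so a lower share of Hsd3b5 by itself raises those of the others. Values were not divided by exon length (6396 bases for Hsd3b3, 3695 for Hsd3b2, 1549 for Hsd3b5), so shares do not rank the genes. Per kilobase of exon, the means of Hsd3b5 and Hsd3b3 were 575 and 564 in KO, and 3787 and 635 in WT. For Hsd3b5, Hsd3b3 and Hsd3b2 the WT libraries did not overlap the KO libraries, WT replicate 3 included. Hsd3b1 and Hsd3b6 had no such split, with shares of 0.907% to 1.34% in KO against 0.032% to 2.23% in WT for Hsd3b1, and 6.61% to 10.8% in KO against 1.54% to 7.98% in WT for Hsd3b6. The lowest share of each was that of WT replicate 3. In nascent RNA Hsd3b5 held 2.92% of EU reads of the family in KO against 42.0% in WT, and 13.6% of Br reads in KO against 26.8% in WT.

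**Figure D2:**
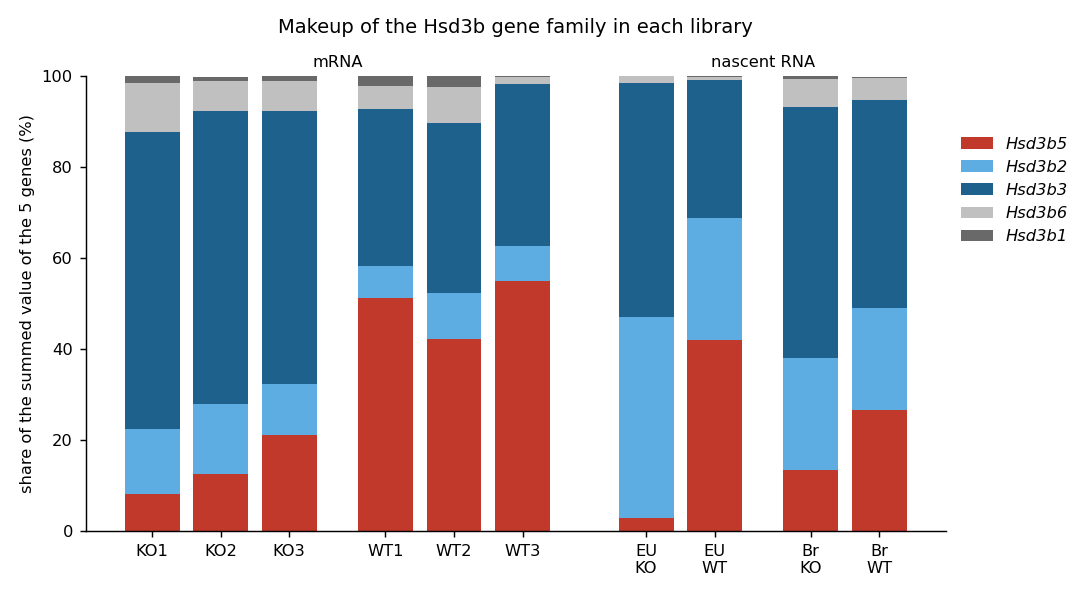
Share of each Hsd3b gene (%) in the summed value of 5 family members, for the 3 KO and 3 WT mRNA libraries and for the KO and WT libraries of each nascent method. Values are not divided by gene or exon length. Hsd3b5 makes up 8.32% to 21.1% in KO mRNA and 42.3% to 55.1% in WT mRNA, and is also the smaller share in KO in both nascent methods.

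Nascent Hsd3b5 gave 44 EU reads in KO and 2593 in WT. The log2 ratio of RPKM + 0.5, centred on the median gene, was -4.82 (counting interval -5.31 to -4.42), 28.8-fold lower by reads. Br run-on gave 63 reads in KO and 205 in WT, a ratio of -1.25 (-1.69 to -0.84). It was the 1 gene of the 9 at least 2-fold lower in both methods, as were 1.48% of all genes compared. Among 155 genes called lower in KO mRNA with a nascent value, 22 were at least 2-fold lower in both. Hsd3b2 had 664 EU reads in KO and 1659 in WT (ratio -0.29, interval -0.42 to -0.16), and 114 Br reads in KO and 172 in WT (-0.15, interval -0.50 to 0.20). Hsd3b3 had 777 EU reads in KO and 1876 in WT (-0.24, interval -0.36 to -0.12), and 256 Br reads in KO and 350 in WT (-0.005, interval -0.24 to 0.23).

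The Hsd3b genes are near copies, so reads may have been assigned to the wrong member. The coding sequences of Hsd3b2 and Hsd3b3 are 95.1% identical over 1119 bases, and Hsd3b5 matches them at 81.8% and 82.3%. Among Hsd3b1 to Hsd3b6 the nearest to Hsd3b5 is Hsd3b4, at 95.2%, which has no row here. Levels of single members are uncertain to that extent. Hsd3b5, Hsd3b2 and Hsd3b3 also overlap Zfp697 on the opposite strand, and whether counting used strand is not given in the sources used here.

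Hsd17b2 and Akr1c6 act on carbon 17. Hsd17b2 (ENSMUSG00000031844) oxidises testosterone and estradiol to weaker ketosteroids. Its mRNA was the steadiest of the 9, with 4967, 3943 and 4112 in KO and 5058, 3916 and 4321 in WT, coefficients of variation of 12.7% and 13.1% and a log2 difference of -0.03 (SE 0.20). With a library left out that difference ran from -0.13 to 0.07. Gm31774 overlaps Hsd17b2 on the opposite strand and Gm45776 on the same strand. The 2 nascent methods gave opposite signs for Hsd17b2, with 145 EU reads in KO and 497 in WT (ratio -0.70, interval -1.02 to -0.48) and 129 Br reads in KO and 133 in WT (0.39, interval 0.04 to 0.76).

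Akr1c6 (ENSMUSG00000021210) encodes a reductase that makes active 17-hydroxysteroids from ketosteroids. It had 19615, 30300 and 28329 in KO, against 11462, 13885 and 19706 in WT. The groups overlapped by a narrow margin, at KO replicate 1 and WT replicate 3. Means were 26080 ± 5686 in KO and 15020 ± 4237 in WT (SD, n = 3 each). The log2 difference was 0.81 (SE 0.28) over all libraries and 1.02 without WT replicate 3. Nascent Akr1c6 had 1321 EU reads in KO and 3445 in WT (ratio -0.35, interval -0.44 to -0.26) and 358 Br reads in KO and 430 in WT (0.18, interval -0.03 to 0.39). Among Akr1c12, Akr1c13, Akr1c14 and Akr1c20, the only family members compared, Akr1c20 was nearest to Akr1c6. Their coding sequences are 92.3% identical, which limits how well reads of these genes can be told apart.

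Srd5a1 (ENSMUSG00000021594) encodes steroid 5-alpha-reductase 1, which reduces testosterone, progesterone and corticosterone. Its mRNA had 1791, 2292 and 2734 in KO and 1234, 2401 and 3996 in WT. All KO values lay within the WT range, with a log2 difference of -0.03 (SE 0.40) that was 0.38 without WT replicate 3. Nascent Srd5a1 was lower in KO by both methods, with 46 EU reads in KO and 509 in WT (ratio -2.30, interval -2.91 to -2.0) and 89 Br reads in KO and 218 in WT (-0.83, interval -1.22 to -0.49). Nsun2 overlaps it on the opposite strand.

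Hsd11b1 (ENSMUSG00000016194) encodes the liver enzyme that regenerates active glucocorticoid from its inert keto form. Its mRNA had 5684, 7774 and 9387 in KO and 9035, 9298 and 24120 in WT. KO replicate 3 exceeded WT replicates 1 and 2, and WT replicate 3 stood far above all others. The log2 difference was -0.76 (SE 0.40) over all libraries and -0.30 without WT replicate 3. Nascent Hsd11b1 had 189 EU reads in KO and 844 in WT (ratio -1.06, interval -1.36 to -0.90), and 114 Br reads in KO and 105 in WT (0.52, interval 0.17 to 0.96). The methods thus disagreed in sign. Lamb3 overlaps Hsd11b1 on the opposite strand.

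Over the 8 genes with a nascent ratio, EU capture gave 4 at least 2-fold lower in KO (Cyp17a1, Hsd3b5, Srd5a1 and Hsd11b1) and 0 higher, where 18.7% of 10441 genes were lower and 18.9% higher. Br run-on gave 1 lower (Hsd3b5) and 0 higher, against 4.6% and 5.4% of 11219 genes. In both methods together 1 was lower, against 1.48% of 10084 genes lower and 2.08% higher. All 8 had EU ratios below 0, as had 51.5% of all genes compared, and 3 of them (Hsd17b2, Akr1c6 and Hsd11b1) had Br ratios above 0, as had 50.1%. The EU KO library held 5583983 reads against 10833287 in WT, and the Br KO library 2317840 against 3156055.

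**Figure D3:**
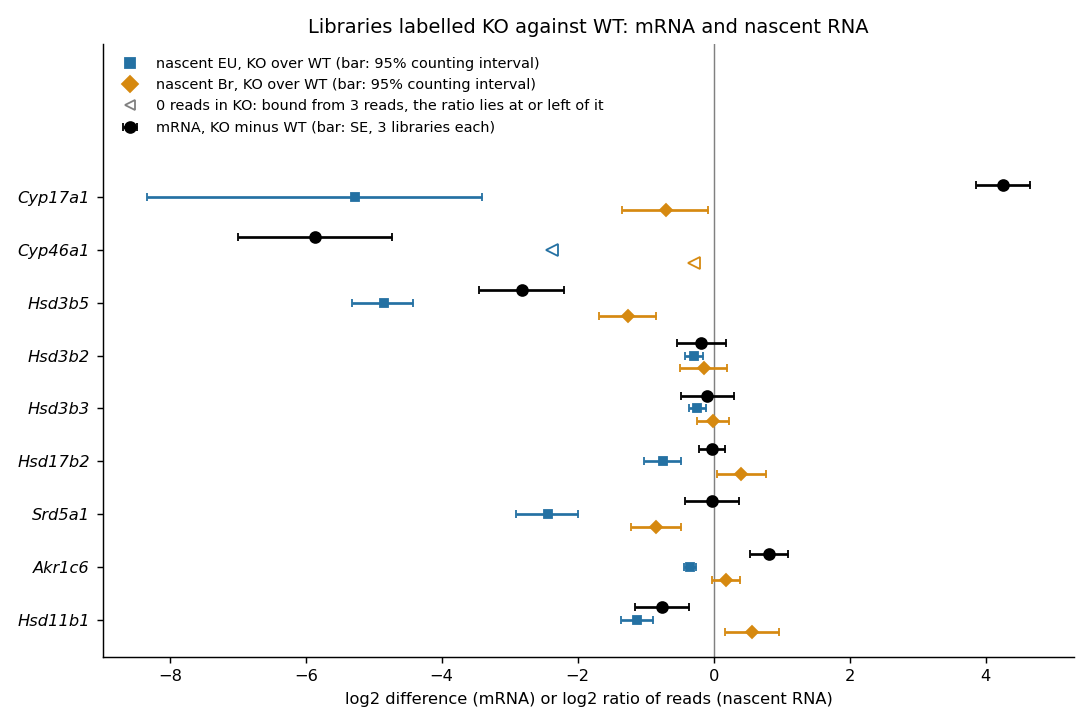
For each of the 9 genes, the mRNA log2 difference KO minus WT with its SE (black circles, 3 libraries each) and the centred log2 ratio of nascent reads KO over WT with 95% counting intervals for EU (squares) and Br (diamonds). Open triangles are bounds for Cyp46a1, which had 0 nascent reads in KO. They use 3 reads for KO and leave out counting error in WT. With that error the Br interval of Cyp46a1 reaches above 0. Cyp17a1 lies at 4.26 in mRNA and at -5.28 in EU, and Hsd3b5 lies below 0 in all 3 measures.

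The order of the 9 mRNAs per kilobase of exon can be given within each group. In KO libraries Akr1c6 was highest at 12830 (9648 to 14900), followed by Hsd17b2 at 2256 (2049 to 2582), Hsd11b1 at 1791 (1337 to 2208) and Srd5a1 at 781 (616 to 940). Hsd3b5 at 575 (197 to 1030) and Hsd3b3 at 564 (375 to 707) came next, then Hsd3b2 at 209 (141 to 253), Cyp17a1 and Cyp46a1. Hsd3b5 held a higher place in WT than in KO. In WT libraries Akr1c6 was again highest at 7387 (5638 to 9693), and Hsd3b5 came second at 3787 (1961 to 6602). Hsd11b1 at 3329 (2125 to 5674), Hsd17b2 at 2303 (2035 to 2629), Srd5a1 at 874 (424 to 1374) and Hsd3b3 at 635 (420 to 1032) followed. Cyp46a1, Hsd3b2 at 247 (161 to 387) and Cyp17a1 were lowest. In KO the ranges of neighbours in this order were apart at 4 places: between Akr1c6 and Hsd17b2, Hsd11b1 and Srd5a1, Hsd3b3 and Hsd3b2, and Cyp17a1 and Cyp46a1. In WT they were apart between Hsd17b2 and Srd5a1 and between Hsd3b2 and Cyp17a1, and all other neighbours overlapped.

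WT replicate 3 was the highest WT library for 7 of the 9 genes, where it was for 43.7% of all genes tested. The exceptions were Cyp17a1 and Hsd17b2. For Hsd3b2, Hsd3b3 and Srd5a1 the sign of the log2 difference turned without WT replicate 3, and likewise without KO replicate 1. That of Srd5a1 also turned without WT replicate 2. That of Hsd17b2 turned without KO replicate 2, KO replicate 3 or WT replicate 1. Under upper-quartile scaling the signs of Hsd17b2 and Srd5a1 turned.

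The rest of steroid metabolism and action was examined in 10 lists with 136 genes, of which 115 had enough mRNA signal. Of these, 8 rose and 11 fell in KO (limma, Benjamini-Hochberg adjusted p under 0.05 over all genes), 16.5% against 2.71% of all genes tested. The median log2 difference was -0.13, against 0.0023 over all genes. The lists were drawn up with earlier results of these libraries known, so the count is a description. It was 5 without KO replicate 1, 1 without KO replicate 2, 9 without KO replicate 3, 5 without WT replicate 1, 3 without WT replicate 2 and 26 without WT replicate 3. Cyp2b9 kept its call with any library left out, Srebf1 in 5 of 6 cases and Fdx1 in 4, while 12 kept it only without WT replicate 3.

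The estrogen receptor gene Esr1 had 133, 126 and 82 in KO against 403, 303 and 703 in WT, a 3.94-fold fall (limma adjusted p = 0.0307). Of the 11 receptors and carriers tested 2 fell and 0 rose, with a median of -0.39. The glucocorticoid receptor gene Nr3c1, not called, had 789, 1384 and 1279 in KO and 1334, 1468 and 2260 in WT. Nascent Esr1 had 297 EU reads in KO and 1125 in WT (log2 ratio -0.88, interval -1.08 to -0.71), and 29 Br reads in KO and 30 in WT (0.38, interval -0.39 to 1.18).

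Among 21 other hydroxysteroid dehydrogenases and reductases, 2 rose, 0 fell and 19 were not called (median -0.03). At an unadjusted p under 0.05 limma had 3 lower, edgeR called 0 lower and DESeq2 1. Dhrs9, which oxidises retinol and hydroxysteroids, had 71, 107 and 49 in KO against 14, 12 and 5 in WT, a 6.93-fold rise (limma adjusted p = 0.0331). Carbonyl reductase Cbr1 had 3019, 2067 and 1589 in KO against 616, 870 and 751 in WT, a 2.91-fold rise (limma adjusted p = 0.0292). Hsd3b1 had 49, 55 and 72 in KO and 175, 160 and 6 in WT, so that WT replicate 3 alone set its log2 difference of 0.01, which was -1.52 and called without that library.

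The electron donors of these enzymes showed 1 call among 8 (median -0.14). Fdx1, the ferredoxin that feeds mitochondrial P450 enzymes, had 869, 800 and 895 in KO against 2208, 2125 and 2227 in WT, a 2.56-fold fall with little spread in either group (limma adjusted p = 0.010). P450 reductase Por (11346, 10527 and 13002 in KO; 10333, 14034 and 17179 in WT) and cytochrome b5 Cyb5a, a helper of Cyp17a1 (9860, 10477 and 11013 in KO; 8621, 9762 and 13870 in WT), were not called. Neither was H6pd, which supplies NADPH to Hsd11b1 (10802, 10488 and 9728 in KO; 8925, 9702 and 10672 in WT).

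In the list of cholesterol and oxysterol hydroxylases, which also holds Hsd3b7, 6 genes were tested, and 1 rose and 1 fell (median -0.58). Cyp7b1, the oxysterol 7-alpha-hydroxylase, had 590, 1417 and 1244 in KO against 4457, 4058 and 5317 in WT, a 4.52-fold fall (limma adjusted p = 0.0189). Hsd3b7, which acts on bile acid precursors, had 17130, 13718 and 16461 in KO against 7649, 6631 and 6131 in WT, a 2.32-fold rise (limma adjusted p = 0.0240). Not called were Cyp7a1, the first enzyme of the classic bile acid route (2910, 5236 and 2556 in KO; 6117, 3745 and 7543 in WT), and Cyp27a1 (8473, 7588 and 9681 in KO; 15398, 15110 and 14021 in WT; limma adjusted p = 0.0678).

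Among 18 P450 genes whose products hydroxylate testosterone or related steroids, 3 rose and 1 fell (median 0.66). At an unadjusted p under 0.05 limma had 9 higher and 2 lower, edgeR called 3 higher and 1 lower, and DESeq2 6 higher and 2 lower. Cyp2b9 had 1154, 831 and 506 in KO against 68, 37 and 40 in WT, a 16.5-fold rise (limma adjusted p = 0.00545). Cyp3a13 rose 3.43-fold (1658, 2112 and 2810 in KO; 436, 558 and 997 in WT) and Cyp3a41a 2.84-fold (1807, 2557 and 2436 in KO; 980, 964 and 521 in WT). Cyp2c39 had 630, 323 and 492 in KO against 2055, 2079 and 1045 in WT, a 3.54-fold fall (limma adjusted p = 0.0358). Reads of the Cyp2c and Cyp3a families can be split between near copies, so these single values are uncertain. Of 17 listed genes of sulfation and glucuronidation 9 were tested. Among these, Ugt2b38 fell 2.09-fold (1977, 2350 and 2736 in KO; 4018, 4988 and 5750 in WT) and 0 rose (median -0.31), also at an unadjusted p under 0.05 and by edgeR and DESeq2. Too low to be tested but higher in KO were Sult2a1 (22, 19 and 3 in KO; 0, 0 and 0 in WT) and Sult2a2 (28, 24 and 3 in KO; 1, 0 and 0 in WT). The other untested genes with a row overlapped between the groups.

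Of 14 female-biased liver genes 4 rose and 0 fell, with a median of 1.49, and of 15 male-biased genes 0 rose and 4 fell, with a median of -0.84. Limma at an unadjusted p under 0.05 had 0 female-biased genes lower and 1 male-biased gene higher. EdgeR called 4 female-biased genes higher and 4 male-biased genes lower, and DESeq2 called 7 and 8, with 0 in the opposite directions by both tools. Besides Cyp2b9 and Cyp3a41a, the peroxisomal oxidase Hao2 rose (136, 95 and 37 in KO; 8, 3 and 5 in WT; limma adjusted p = 0.0226), and it is the gene next to Hsd3b1 at the far end of the Hsd3b cluster. Besides Cyp7b1 and Ugt2b38, Cyp4a12b fell (2994, 3167 and 2970 in KO; 5307, 6070 and 8437 in WT; limma adjusted p = 0.0431), as did the complement gene C6 (1773, 1682 and 1572 in KO; 3117, 3408 and 3723 in WT; limma adjusted p = 0.0270). Some genes stand in more than one list. The Y-linked transcripts given above were present in all 6 libraries.

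Genes that respond to oxysterols and glucocorticoids were examined next, where 1.35% of all genes tested rose and 1.36% fell. Of 11 targets of the oxysterol receptor LXR, 0 rose and 2 fell (median 0.09), with 1 higher at an unadjusted p under 0.05 in limma, 0 by edgeR and 1 by DESeq2. Srebf1, the lipogenic regulator, had 1828, 1958 and 2441 in KO against 7248, 6045 and 6732 in WT, a 3.23-fold fall (limma adjusted p = 0.00938), and Lpcat3 had 1414, 1278 and 1211 in KO against 2331, 2178 and 2644 in WT, a 1.83-fold fall (limma adjusted p = 0.0445). Of 13 glucocorticoid receptor targets 0 rose and 1 fell (median 0.001), with 2 higher at an unadjusted p under 0.05 in limma and 0 by edgeR and DESeq2. The 1 was the metallothionein gene Mt2, with 251, 111 and 215 in KO against 867, 699 and 1730 in WT, a 5.57-fold fall (limma adjusted p = 0.0249).

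**Figure D4:**
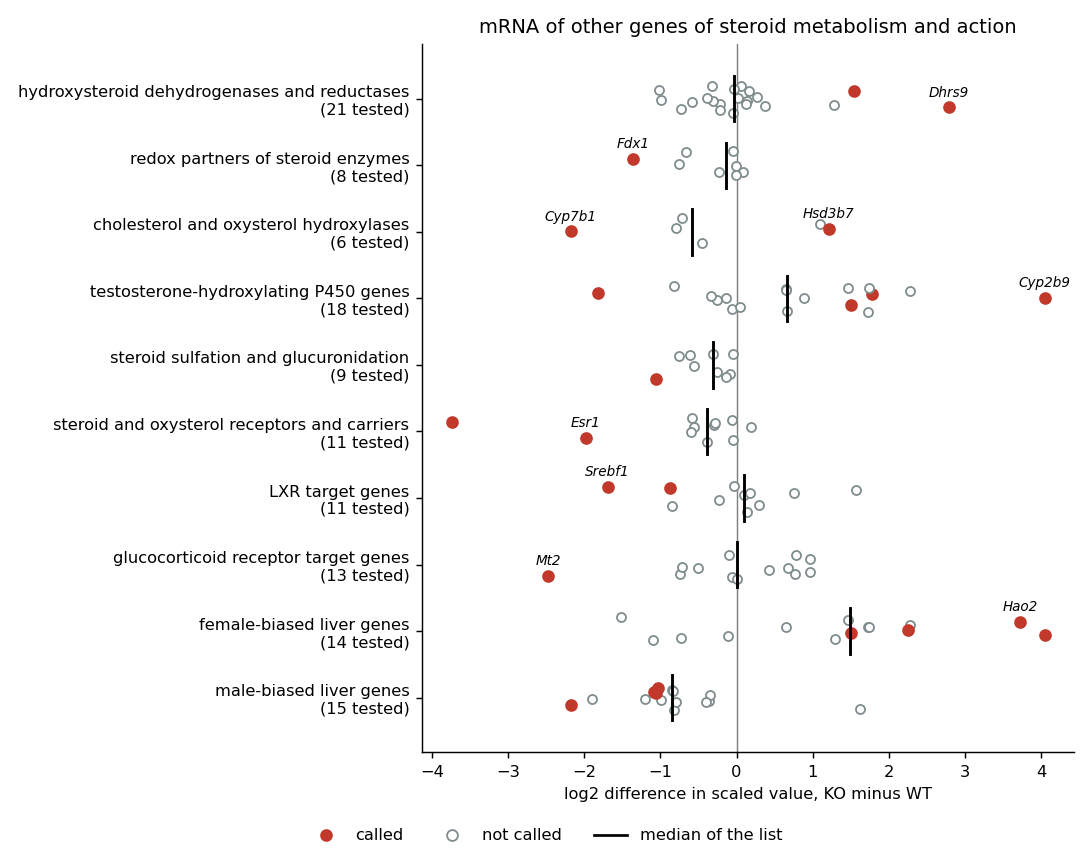
log2 differences in scaled mRNA value, KO minus WT, of the tested genes in 10 lists of steroid metabolism and action. Filled points passed a limma adjusted p under 0.05 over all genes, open points did not, and a black bar marks each list's median, from -0.84 (male-biased) to 1.49 (female-biased).

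Markers of other liver cells were set beside these groups. Of 7 macrophage markers 1 rose (Csf1r) and all 7 had differences above 0, as had 50.2% of all genes tested, with sums of 7841 to 18286 in KO and 5066 to 6798 in WT. Limma at an unadjusted p under 0.05 had 6 of them higher, edgeR called 1 higher and DESeq2 5, with 0 lower by each. Of 7 stellate cell markers 1 rose (Pdgfrb), with sums of 5823 to 7091 in KO and 3028 to 4391 in WT, and of 5 bile duct markers 1 rose (Spp1), with 1027 to 1923 in KO and 535 to 703 in WT. Unadjusted limma had 4 stellate cell markers higher, edgeR called 1 and DESeq2 2. For bile duct markers each of these had 1 higher, and none had a lower marker in either list. Of 5 endothelial and 6 blood cell markers limma called 0. At an unadjusted p under 0.05 it had 2 endothelial and 1 blood cell marker, edgeR called 0, and DESeq2 called 1 endothelial and 0 blood cell markers. Sums were 5421 to 6073 in KO against 5390 to 5711 in WT for endothelial cells and 14588 to 26634 in KO against 12599 to 19656 in WT for blood. Of the 8 pancreatic acinar markers 0 had enough signal, with sums of 17 to 23 in KO and 3 to 51 in WT. In nascent RNA some of these markers differed widely between the EU libraries. EU reads in KO and WT were 4572 and 188 for Hba-a1, 4307 and 523 for Hbb-bs, and 3396 and 529 for Col3a1. In Br they were 67 and 73, 56 and 113, and 192 and 91 in that order. Alas2 went the other way, with 2 EU reads in KO and 342 in WT, and 43 Br reads in KO and 132 in WT. The part of these cells in the differences of the 9 genes was not tested, in mRNA or in nascent RNA.

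In nascent RNA 99 pathway genes could be compared in both methods, and 5 were at least 2-fold higher and 6 at least 2-fold lower in both, beside 2.08% higher and 1.48% lower of all genes compared. The higher ones included Hsd17b6, a dehydrogenase that acts on androgens, with 299 EU reads in KO and 279 in WT (ratio 1.09, interval 0.89 to 1.37) and 313 Br reads in KO and 150 in WT (1.48, interval 1.22 to 1.80). Srd5a3, a relative of Srd5a1 that acts on polyprenols, had 167 EU reads in KO and 56 in WT (2.57, interval 2.16 to 3.07) and 134 Br reads in KO and 84 in WT (1.11, interval 0.72 to 1.53). Neither gene was called in mRNA, where Hsd17b6 had 7742, 7892 and 15089 in KO and 11856, 10151 and 11944 in WT. Cyp2c38, Lpl and Mup20 were the other higher genes.

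The lower ones included the glucocorticoid-induced genes Tat, which encodes tyrosine aminotransferase, and Fkbp5, a chaperone of steroid receptors. Tat had 3983 EU reads in KO and 35044 in WT (ratio -2.11, interval -2.15 to -2.06) and 2427 Br reads in KO and 10764 in WT (-1.70, interval -1.77 to -1.64). Fkbp5 had 381 EU reads in KO and 2440 in WT (-1.64, interval -1.81 to -1.49) and 65 Br reads in KO and 217 in WT (-1.28, interval -1.72 to -0.89). Neither Tat nor Fkbp5 was called in mRNA. Tat mRNA had 18690, 21773 and 75293 in KO and 18648, 22630 and 17894 in WT. Fkbp5 mRNA had 1692, 1621 and 4388 in KO and 1985, 2718 and 2521 in WT. For both genes KO replicate 3 was the highest mRNA library. Mt2, also lower in mRNA, had 1 EU read in KO and 452 in WT and 7 Br reads in KO and 42 in WT. Scd1, Selenbp2 and Cyp2c40 were the other lower genes. For single methods the counts were 19 higher and 30 lower of 103 pathway genes in EU, where 18.9% of all genes compared were higher and 18.7% lower, and 11 higher and 12 lower of 103 in Br, against 5.4% and 4.6%. The higher count in EU was thus no larger a share than over all genes.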

How the data were processed

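Of the 34 samples, the 6 mRNA libraries and the 4 nascent RNA libraries were used. The 24 samples of chromatin were not used here. Per the submitters' processing notes, TopHat2, Bowtie2, Cufflinks and DESeq were used with genome mm9. Which counter, annotation and strand setting were used is not given in the sources used here. Values of the mRNA libraries are a score: reads that the authors scaled between libraries with DESeq and rounded to whole numbers. The nascent files hold counts per gene as deposited. All Br counts were even and were divided by 2. The authors also deposited RPKM values for the 4 nascent libraries, used for ratios within a gene and not for levels between genes.

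limma 3.58.1 in R 4.3.3 (trend and robust) was fitted to log2(score + 1) over genes with at least 10 in at least 3 libraries. Calls are at a Benjamini-Hochberg adjusted p under 0.05 over all genes, two-sided. Fold changes are those of score + 1. Nascent ratios are KO over WT of RPKM + 0.5, centred on the median of 12809 genes whose mean RPKM reached 1. Counts of 2-fold genes needed at least 20 reads. Intervals are exact (Clopper-Pearson, 95%), use reads without the added RPKM, and cover counting error only. For Cyp17a1, with 2 EU reads, the ratio of reads is given in place of the shrunken RPKM ratio of -1.86 (EU) and -0.56 (Br). Folds against 0 reads use 3 reads for the KO library and leave out counting error in the WT reads.

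The members and gene lists were chosen with earlier results of these data known. Of 204 listed genes 201 have a row. Named were all 9 members, up to 4 called genes with the largest difference per pathway list, the 5 genes most correlated with Cyp17a1 and with Cyp46a1 (mean score of at least 50), and pathway genes at least 2-fold changed in both nascent methods. Nr3c1, Por, Cyb5a, H6pd, Cyp7a1, Cyp27a1, Hsd3b1, Hsd3b6, marker genes and sex-linked genes were named outside that rule, some after their values were seen. A few genes it selects are not reported here. Exon lengths and overlaps came from GENCODE M21, start regions from RefSeq (GRCm38.p6), both on a later build than the files. The steps were tested on simulated data. Alternatives were pseudocounts of 0.5 and 10, other filters and scalings, a replicate block, each library left out, and edgeR 4.0.16 and DESeq2 1.42.0 on reads re-estimated from the rounding steps (15640582 to 27111332 per library).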

Additional observations from a re-analysis of the deposited data

How the results depend on the processing

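The mRNA values of the 9 genes moved by less than their spread between replicates under all 15 alternatives run, and the nascent ratios of 7 of the 8 genes compared by less than the half-width of their counting intervals. The exception was Cyp17a1, whose EU ratio, with 2 reads in KO, was -5.28 from reads alone and ran from -4.07 (CPM + 0.5) through -3.51 (RPKM + 0.1) and -1.86 (RPKM + 0.5) to -0.75 (RPKM + 2), of which the last 2 lie outside the counting interval and the last is under 2-fold. The Br ratio of Hsd3b3 changed sign, to 0.003, with a mean RPKM of at least 5. Counts of calls moved more. The number of mRNA genes called was 455, against 1782 with DESeq2 on re-estimated reads, 1014 with the replicate block and 28 to 1666 with a library left out (28 without KO replicate 2, 1666 without WT replicate 3). The same count was 442 to 621 under other pseudocounts, filters and scalings and 510 with edgeR. The number of steroid pathway genes called was 19, against 30 with DESeq2, 26 with the replicate block, and 1 (without KO replicate 2) to 26 (without WT replicate 3) with a library left out. Whether the replicate numbers pair the libraries could not be settled. Same-numbered KO and WT libraries deviated with correlations of 0.409, -0.242 and 0.198, and other combinations ran from -0.395 to 0.27. With 3 libraries per group such values cannot exclude pairing. The cause of these shifts was not tested. Of 282 recomputed values of the named pathway genes none changed sign, and 75 lost their call, 74 of them with a library left out. For the nascent pathway genes at least 2-fold changed, the count stayed between 38 and 50 in EU and between 19 and 24 in Br. Counts limit Cyp46a1 in both nascent methods (0 reads in both KO libraries) and Cyp17a1 in EU (2 reads in KO), and single nascent libraries allow no test.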
